A study of Mus musculus with 24 samples.

Results

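Total H2AX was mapped along the autosomes of wild-type mouse embryonic fibroblasts by setting H2AX chromatin immunoprecipitation (ChIP) libraries against input chromatin. The members were 8 of the 24 labelled libraries of the study: 4 with an antibody against H2AX and 4 of input, taken by their labels of antibody and genotype. Counts were compared in 24032 of the 27268 bins of 100 kb in the table, which were the autosomal bins that passed a filter on low counts. The H2AX groups were female WT and male WT, with 2 libraries each, and the input groups were female WT and male WT, again with 2 libraries each. All of these cells were primary fibroblasts of strain C57BL6 that had received 5 Gy of X-rays and then recovered for 30 min, and this was equally true of the input. An unirradiated state was not analysed here, so levels before and after X-rays cannot be told apart. For comparison, H2AX and input libraries of SIRT7-KO fibroblasts (8 libraries, both sexes) and gH2AX libraries of WT fibroblasts (4, both sexes) were used. They share the strain, the dose and the recovery time. Nothing in the labels tells whether both libraries of a group go back to different cultures or embryos, so p-values here measure only the spread between these libraries, which may be technical.

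H2AX is a variant of the core histone H2A that is built into nucleosomes throughout the genome in all phases of the cell cycle. Its tail is phosphorylated by ATM, ATR and DNA-PK around double-strand breaks, which gives gH2AX, the mark on which MDC1 and the later repair factors assemble. The antibody against total H2AX is meant to show where the variant lies, and so how much substrate a region offers for that phosphorylation.

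The 4 H2AX libraries held 108 M to 243 M reads and the 4 inputs 110 M to 269 M (M, reads in units of 1e+06), with a median of 3793 to 9353 reads per autosomal bin. Female libraries carried the X-chromosome share of reads of their label, with 5.80% to 5.93% of reads on X, against 3.13% to 3.29% in males. Values below are CPM, reads scaled to 1e+06 autosomal reads of a library, and log2 ratios of H2AX over input are scaled to autosomal reads, so that they describe where H2AX lies and not how much of it a cell holds. Both libraries of a group lay further apart than counting error alone gives, by a chi-square over its degrees of freedom that ran from 2.65 to 3.51. The median biological coefficient of variation was nevertheless only 1.89%.

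H2AX was unevenly spread over the autosomes, by small amounts and in the same way in every library. Bins ranged from 27.9 to 50.6 CPM in H2AX (5th to 95th percentile, median 37.5), against 33.0 to 40.4 CPM in input (median 37.1). Between any pair of H2AX libraries the rank correlation across the 24032 bins was 0.97 to 0.99, between any pair of inputs 0.81 to 0.88, and between an H2AX and an input library -0.03 to 0.19. These correlations are across bins, which are not independent replicates. H2AX was higher than input in 10646 bins (44.3% of those tested) and lower in 10141 (42.2%), in edgeR's quasi-likelihood test at a Benjamini-Hochberg adjusted p under 0.05. The middle 90% of bins lay between -0.36 and 0.48 on the log2 scale. A change of at least 1.2-fold was reached by 4599 of the higher bins (19.1%) and 3491 of the lower bins (14.5%). At the larger sizes, 502 higher and 10 lower bins reached 1.5-fold, and 4 higher and 1 lower bin reached 2-fold. Without a test, all 4 H2AX libraries lay above all 4 inputs in 9737 bins and below them in 9323.

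The profile was smooth over long distances. The log2 ratio of a bin correlated with that of its direct neighbour by 0.85, with the bin 0.5 Mb away by 0.69, 1 Mb away by 0.58 and 5 Mb away by 0.27. Neighbouring called bins past 1.2-fold merged into 1482 higher and 1111 lower regions. Of these, 84 higher and 74 lower regions spanned 10 or more bins, and they held 32.5% of all higher and 33.7% of all lower bins of that size of change.

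Bins with genes carried more H2AX, and the more genes a bin held the more H2AX it had. For each library the median log2 CPM of a class of bins was taken relative to that of all bins. For the 666 bins that hold at least 5 protein-coding genes this was 0.28 and 0.29 in the female H2AX libraries and 0.32 and 0.32 in the male ones, against -0.04 and -0.04 in female input and -0.02 and -0.03 in male input. All H2AX libraries were above zero and all inputs just below it, so that the groups were far apart. Over 13358 bins in which no gene has its midpoint, the values were -0.13, -0.12, -0.13 and -0.13 in the H2AX libraries, against 0.0005, 0.002, -0.005 and -0.002 in the inputs. Here the order was the opposite, and the spread within the H2AX group was 0.001 (SD, n = 4).

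H2AX minus input thus came to -0.13 for bins without a gene, 0.09 for 1 gene (5937 bins), 0.17 for 2 (2367 bins), 0.24 for 3 to 4 (1704 bins) and 0.34 for 5 or more. Each of these 5 differences had an exact two-sided permutation p of 0.0286, the smallest that 4 libraries against 4 can give, and 0.0319 after adjustment over the 38 classes and chromosomes tested. Within the sexes, the values for 5 or more genes were 0.33 in females and 0.35 in males. The share of bins called higher grew in the same order from 26.1% without a gene through 59.3%, 74.4% and 78.8% to 81.1% with 5 or more. Across bins the rank correlation with gene number was 0.48 for H2AX CPM and -0.01 for input CPM.

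**Figure D1:**
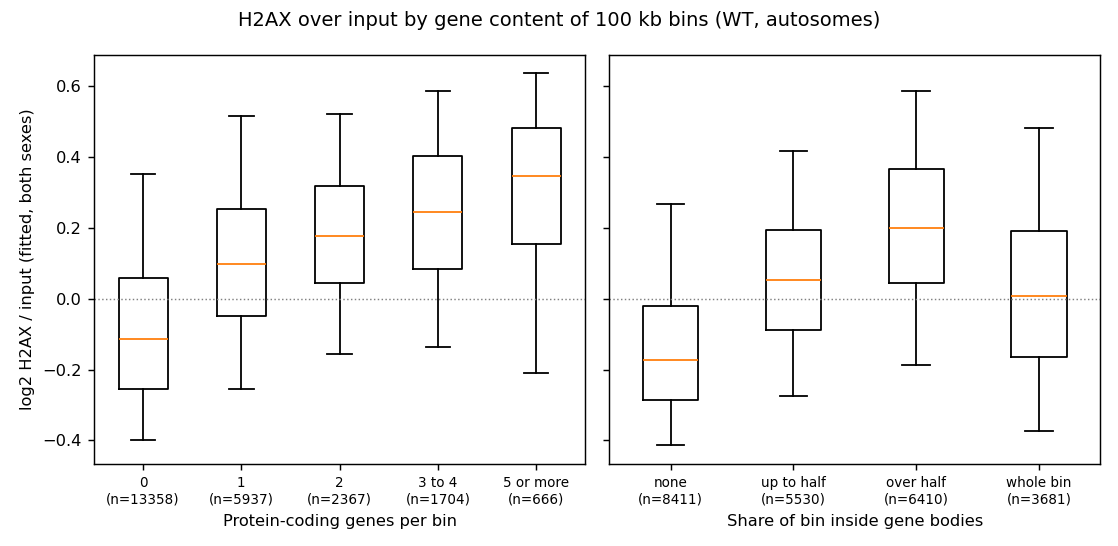
Fitted log2 ratio of H2AX over input in the 8 WT libraries (vertical axis) by number of protein-coding genes in a 100 kb bin (left) and by the share of the bin inside gene bodies (right). Boxes span the quartiles with the median as a line, whiskers the 5th to 95th percentile of bins, and n is the number of bins. The ratio is higher with each step in gene number, while bins wholly inside a gene body lie close to 0.

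Lying inside a gene was not enough for a high ratio. By the share of a bin that gene bodies cover, a grouping chosen after the data had been seen, H2AX minus input was -0.18 in 8411 bins with no gene body, 0.04 where the smaller part was covered and 0.19 where the larger part, but not all, was covered. In the 3681 bins that lay wholly inside gene bodies it was -0.002, with 1627 bins called higher and 1539 lower, and the exact permutation p was 0.429 (adjusted 0.452). Of these, 3223 bins held no promoter window, with -0.02, and 458 held at least 1, with 0.09, both at an exact p of 0.0286.

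Promoters differed as well. Each promoter window of a protein-coding gene was given its number of CG dinucleotides (the letters C and G in that order, the target of DNA methylation). A window holds the 300 bases around a gene start, and some genes have several. Bins with at least 1 such window (9038) were ranked by the mean over their windows. Median CG number over 20085 windows was 14, and 95.6% of windows held at least 1. Ranked in this way and cut into 5 equal groups, the bins with the fewest, at 1.83 CG per window on average, had an H2AX minus input of -0.02. The next groups had 0.11, 0.19, 0.20 and 0.15, so the highest ratio was not in the last group. The first value changes sign, to 0.005, when means over bins replace medians. The median of the fitted log2 ratio in that group was 0.01, with 779 bins called higher and 719 lower. From the fewest to the most CG, the groups held 2.00, 1.76, 2.26, 2.03 and 1.28 genes per bin on average. Across the 9038 bins the rank correlation of the log2 ratio was 0.24 with CG number and 0.30 with the percent of letters G and C in the windows. Gene number, promoter CG and this percent were not tested apart from each other.

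Promoter windows picked from bins of high and of low ratio show how far their sequences differ. The order of CG and ratio among these windows comes with that choice. The windows are given from 250 bases before to 50 bases after the start of the RefSeq gene in build GRCm38.p6, on the gene's strand, with each CG in capitals. Ajap1 (chr4:153482781-153483080, minus strand, 51 CG) lies in a bin with a log2 ratio of 0.89, and Eef2 (chr10:81176381-81176680, plus strand, 34 CG) in one with 0.69. Prl (chr13:27057320-27057619, plus strand, 1 CG) lies in a bin with -0.60, and Col3a1 (chr1:45311288-45311587, plus strand, 0 CG) in one with -0.28. Klf6 (chr13:5861239-5861538, plus strand, 23 CG) goes against that order with -0.45. Windows in the highest bin of all (1.53) ran from 3 CG at Ccdc89 to 23 CG at Tmem126a. In the lowest bin (-3.38) the windows of Lmbrd1 held 18 and 30 CG.
Ajap1: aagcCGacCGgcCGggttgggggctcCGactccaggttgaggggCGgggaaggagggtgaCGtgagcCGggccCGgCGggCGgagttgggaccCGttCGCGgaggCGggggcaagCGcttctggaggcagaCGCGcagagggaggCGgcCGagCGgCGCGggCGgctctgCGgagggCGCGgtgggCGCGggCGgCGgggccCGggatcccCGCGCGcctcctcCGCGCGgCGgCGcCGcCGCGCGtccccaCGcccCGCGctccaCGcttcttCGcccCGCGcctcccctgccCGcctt
Eef2: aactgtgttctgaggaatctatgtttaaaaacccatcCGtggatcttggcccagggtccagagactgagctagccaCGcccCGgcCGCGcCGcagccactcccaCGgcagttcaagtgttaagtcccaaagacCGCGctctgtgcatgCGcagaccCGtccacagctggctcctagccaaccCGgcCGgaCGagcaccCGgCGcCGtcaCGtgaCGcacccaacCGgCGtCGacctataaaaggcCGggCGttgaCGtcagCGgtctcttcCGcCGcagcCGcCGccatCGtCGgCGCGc
Prl: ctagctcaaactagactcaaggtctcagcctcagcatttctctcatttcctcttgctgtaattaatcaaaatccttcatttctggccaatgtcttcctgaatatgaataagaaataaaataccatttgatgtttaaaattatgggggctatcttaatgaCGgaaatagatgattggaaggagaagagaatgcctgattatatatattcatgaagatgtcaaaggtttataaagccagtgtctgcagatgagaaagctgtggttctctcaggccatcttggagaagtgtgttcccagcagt
Col3a1: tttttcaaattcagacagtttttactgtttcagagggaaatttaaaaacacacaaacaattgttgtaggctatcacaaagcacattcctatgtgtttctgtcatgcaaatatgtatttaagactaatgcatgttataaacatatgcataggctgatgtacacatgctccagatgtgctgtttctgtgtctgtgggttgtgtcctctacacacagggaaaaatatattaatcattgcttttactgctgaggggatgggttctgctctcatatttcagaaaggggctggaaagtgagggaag
Klf6: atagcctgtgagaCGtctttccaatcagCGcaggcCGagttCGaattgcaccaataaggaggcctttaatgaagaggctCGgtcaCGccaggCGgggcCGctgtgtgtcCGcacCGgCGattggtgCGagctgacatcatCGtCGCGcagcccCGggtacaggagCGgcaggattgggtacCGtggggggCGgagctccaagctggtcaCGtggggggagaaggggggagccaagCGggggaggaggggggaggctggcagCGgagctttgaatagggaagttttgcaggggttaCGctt
Of all windows, 99.1% held fewer CG than that of Ajap1, 89.4% fewer than Eef2, 69.8% fewer than Klf6 and 4.40% fewer than Prl. These values describe the letters of a window and the reads of the whole bin around it, and no binding at the promoter itself can be read from a bin of 100 kb.

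Of the 8 widest regions rich in H2AX 6 held more protein-coding genes per bin (1.48 to 4.71) than the average of 0.856 over all tested bins, and 2 held fewer. The longest was chr11:115000001-121600000, with 66 bins, 182 protein-coding genes and a median log2 ratio of 0.52. Its mean level per bin was 50.8 and 51.0 CPM in female and 51.6 and 51.3 CPM in male H2AX libraries, against 35.5 and 35.3 CPM in female and 36.1 and 36.1 CPM in male input. No H2AX library overlapped an input there, but the region was merged from bins already called higher past 1.2-fold. The region includes Rbfox3, which encodes the neuronal splicing factor NeuN, Rptor, a subunit of the growth-regulating kinase complex mTORC1, Septin9, and Sirt7 itself.

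Chromosome 4 held the next longest, chr4:137400001-143200000 (58 bins, 86 genes, 0.51), with Eif4g3, a translation initiation factor, and Arhgef10l, a guanine nucleotide exchange factor. It also held chr4:150900001-156300000 (54 bins, 97 genes, 0.61), with Camta1, Prdm16, a regulator of brown fat fate, and Ajap1. The mean level per bin in that last region was 48.7 to 49.4 CPM in the 4 H2AX libraries and 32.1 to 33.5 CPM in the 4 inputs. The other 5 of the 8 longest were chr5:111900001-115700000 (Myo18b, Sez6l, 0.49), chr15:85400001-88900000 (35 bins with 22 genes, Tbc1d22a, Tafa5, Celsr1, 0.51), chr12:104400001-107600000 (32 bins with 22 genes, Clmn, Syne3, Ak7, 0.42), chr7:43800001-46900000 (146 genes, among them Abcc8, a subunit of the potassium channel of beta cells, 0.51) and chr17:23600001-26700000 (139 genes, Ergic1, Abca17, Lmf1, 0.47).

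The widest regions poor in H2AX held almost no genes. The longest, chr14:88700001-92900000, had 42 bins, no protein-coding gene and a median of -0.38. Its mean level per bin was 28.3 and 28.5 CPM in female and 28.8 and 29.1 CPM in male H2AX libraries, against 37.8 and 38.2 CPM in female and 37.3 and 37.2 CPM in male input. The H2AX libraries all lay below the inputs, in a region merged from bins already called lower. The next were chr17:59000001-62500000 (35 bins, with Nudt12 as the only gene, -0.42), chr16:66600001-69800000 (32 bins, with Cadm2 alone, -0.42) and chr10:14900001-17700000 (28 bins, no gene, -0.40). After them came chr4:26400001-29200000 (Epha7, a receptor of axon guidance, -0.39), chr10:100600001-103200000 (7 genes, Mgat4c, Lrriq1, Rassf9, -0.35), chr8:5700001-8100000 (no gene, -0.42) and chr2:45100001-47500000 (-0.37). The last holds Zeb2, a repressor of E-cadherin that drives the epithelial to mesenchymal transition.

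The highest and lowest bins were chosen among called bins whose H2AX and input libraries do not overlap. Their low p-values and separate groups were thus conditions of the choice. Single bins at the top of the profile fell into 2 kinds. In 4 of them H2AX was at least 2-fold higher, with a wide spread between libraries and raised input. The highest was chr7:90400001-90500000 (Dlg2, Sytl2, Tmem126b), with 260 and 329 CPM in female and 168 and 195 CPM in male H2AX libraries, against 87.3 and 88.4 CPM in female and 69.2 and 77.6 CPM in male input. Every H2AX library was above every input, as the choice of bins required. Females were above males in both H2AX and input, and the fitted ratio was 1.53 ± 0.02 (log2 ± SE, 2.88-fold, edgeR adjusted p = 3.66e-148). Sytl2 encodes a synaptotagmin-like protein of vesicle transport, and Dlg2 a scaffold of the synapse that reaches into this bin.

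The same pattern was seen at chr14:45800001-45900000, which holds no gene, with 189 and 232 CPM in female and 124 and 143 CPM in male H2AX libraries, against 59.3 to 72.5 CPM in the 4 inputs (1.33 ± 0.02). Srgap1, which encodes a GTPase-activating protein of Slit and Robo signalling, lies at chr10:121700001-121800000, with 144 and 176 CPM in female and 99.988 and 115 CPM in male H2AX libraries, against 50.5 to 58.6 CPM in the inputs (1.26 ± 0.02). At chr5:104000001-104100000, with Hsd17b11, Sparcl1 (a matrix glycoprotein related to SPARC) and Nudt9, H2AX had 122 and 147 CPM in female and 90.6 and 100.02 CPM in male libraries, against 51.2 to 58.3 CPM in the inputs (1.051 ± 0.022). Input in all 4 of these bins lay above the 95th percentile of input over all bins, 40.4 CPM.

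In the other 6 of the 10 highest bins the H2AX libraries were close together and above the 95th percentile of H2AX (50.6 CPM), and input was below its median of 37.1 CPM. At Rbm19, Ajap1 and Nphp4 mean input, at 32.3, 29.6 and 30.8 CPM, also lay under the 5th percentile of input, 33.0 CPM. At Rbm19, a nucleolar RNA-binding protein (chr5:120100001-120200000), H2AX had 62.1, 60.7, 65.5 and 62.1 CPM, against 31.4, 31.4, 34.4 and 31.9 CPM in input, a ratio of 0.96 ± 0.02. At chr17:56300001-56400000 H2AX had 60.5, 65.3, 63.4 and 64.9 CPM, against 34.7, 35.1, 33.5 and 33.3 CPM in input (0.90 ± 0.02). That bin holds Kdm4b, a demethylase of histone H3 lysine 9, and Uhrf1, which guides maintenance DNA methylation. In each of these bins the H2AX libraries were close together, and their distance from the inputs was a condition of the choice. Ajap1 (0.89), Nphp4 (0.89), a protein of the ciliary transition zone, and Arhgef10l (0.87) were also among them.

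At the other end, 1 bin stood alone. At chr1:24600001-24700000 (Lmbrd1, a lysosomal cobalamin exporter) H2AX had 39.1 and 38.9 CPM in female and 37.9 and 37.4 CPM in male libraries, against 424 and 422 CPM in female and 366 and 387 CPM in male input. H2AX was at the median of all bins and input far above it, so that the ratio was -3.38 ± 0.02. Mean input there was 399 CPM, against a median of 37.1 CPM over all bins. Input was also far above its median at the bin on chromosome 12 and that of 2210408I21Rik. In the other 7 of the 10 lowest bins mean input ran from 37.5 to 40.7 CPM, with the bin inside Cadm2 (40.6) and chr15:23600001-23700000 (40.7) just above the 95th percentile of 40.4. The bin chr10:16500001-16600000, without a gene, had 22.6, 23.0, 25.04 and 25.2 CPM in H2AX and 38.9, 38.1, 36.4 and 38.1 CPM in input (-0.66 ± 0.03). Within Cadm2, a synaptic adhesion molecule, chr16:66900001-67000000 had 24.3, 26.9, 26.2 and 27.0 CPM in H2AX and 40.5, 40.3, 40.0 and 41.6 CPM in input (-0.63 ± 0.03).

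The bin of the prolactin gene Prl and its placental relative Prl3d1 (chr13:27000001-27100000), genes of the pituitary and the placenta, had 25.8, 25.2, 27.3 and 27.2 CPM in H2AX and 39.8, 40.4, 40.9 and 39.2 CPM in input (-0.60 ± 0.03). All H2AX libraries lay below all inputs in these bins, as the choice of bins required. Of the remaining 6 lowest bins, 5 held no protein-coding gene and the other was the bin of 2210408I21Rik on chromosome 13.

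**Figure D2:**
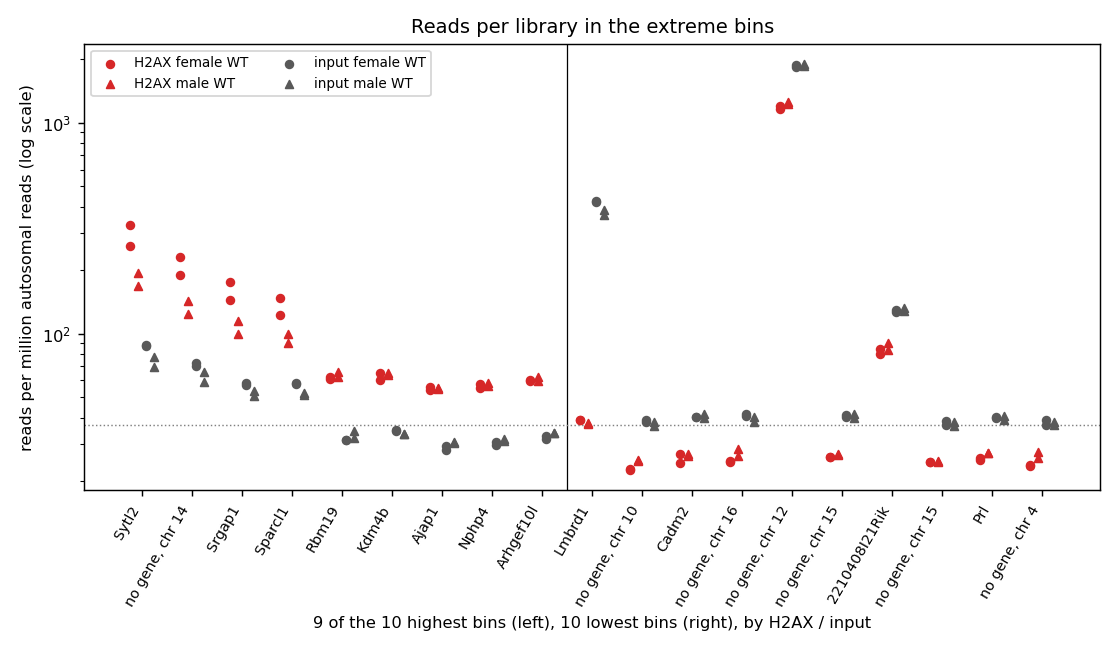
CPM (log axis) in each of the 8 WT libraries for 9 of the 10 bins with the highest and the 10 with the lowest H2AX over input, named by a gene in the bin or by their chromosome. Each point is a library, H2AX in red and input in grey, and the dotted line is the median input level of 37.1. In the first 4 bins female H2AX libraries sit above male ones and input is raised too, and at Lmbrd1 the input, not H2AX, leaves the median.

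Input itself was very high in a few places, and these weigh on any share of reads. There were 16 bins with over 5 times the median input count, and together they held 8.08% of autosomal H2AX reads, against 10.9% of autosomal input reads. At chr2:98600001-98700000 alone H2AX averaged 48137 CPM and input 66006 CPM, a log2 ratio of -0.46. H2AX was lower than input in 9 of the 16 bins, among them chr9:35300001-35400000 (-0.55), chr14:19400001-19500000 (-0.46), chr12:3100001-3200000 (-0.62) and the bin inside Chl1 (chr6:103600001-103700000, -0.56). It was higher in 7, among them Sfi1 (chr11:3100001-3200000, 0.48), whose product binds centrin, and 5 bins on chromosome 8 from chr8:19700001-19800000 to chr8:20600001-20700000 (0.15 to 0.32). How reads with several alignments were counted is not given in the sources used here, and whether reads of repeats gather in these bins was not tested.

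By chromosome, H2AX was highest on 11 and 7 and lowest on 2, but without those 16 bins chromosome 2 was no longer below 0. Chromosome 11 held 4.96% to 4.98% of autosomal H2AX reads in the 4 libraries and 4.43% to 4.47% of input reads, a log2 difference of 0.16. Chromosome 7 held 5.61% to 5.67% of H2AX reads and 5.03% to 5.08% of input reads (0.16), and chromosome 17 followed (0.11), then 5 (0.10), 19 (0.08), 8 (0.07) and 4 (0.07). The groups did not overlap on any of these. Chromosome 2 held 11.6% to 11.8% of H2AX reads and 13.2% to 13.4% of input reads (-0.18), and 3 (-0.08), 14 (-0.08) and 9 (-0.06) were lower as well. In all, 9 of 19 chromosomes were higher and 7 lower at an exact permutation p of 0.0286 (adjusted 0.0319), with values within each sex of the same sign.

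Without the 16 bins, chromosome 2 turned to 0.01 and chromosome 9 to 0.05, with 1 and 2 of the 16 bins on them. All 9 chromosomes that hold none of these bins moved alike, by -0.05, as the totals changed, and this took 15 and 18, which had been within 0.04 of 0, below 0. Chromosomes 6 and 13, with 1 of the 16 bins each, moved by -0.03 and -0.04 and ended below 0 as well. Chromosomes 7 (0.11), 11 (0.11), 17 (0.07) and 5 (0.06) remained the highest and chromosome 3 (-0.13) became the lowest. Since 8.08% of H2AX reads and 10.9% of input reads then leave the totals, the median ratio of all bins moved by -0.05 on the log2 scale, with 9194 bins called higher and 11622 lower. The lists below kept the sign of their medians under that scaling. Over the 19 chromosomes, the difference without those bins ran with gene density, from 5.63 genes per Mb on chromosome 18 to 13.9 on chromosome 7 (Pearson 0.84, Spearman 0.80, a description over 19 chromosomes of the same libraries). The tested bins in the first 5 Mb of chromosomes had 0.08 and those in the last 5 Mb 0.15 relative to all bins, with 1.13 and 1.15 genes per bin. Only 379 bins were tested in the first 5 Mb, against 948 in the last 5 Mb, so the chromosome starts were covered only in part.

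**Figure D3:**
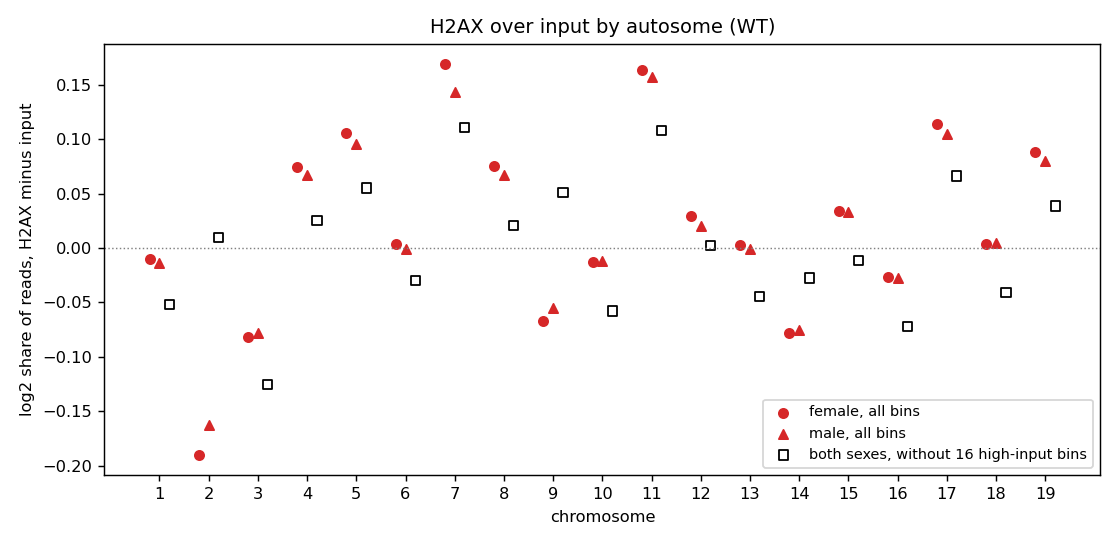
Log2 share of autosomal reads on each autosome, H2AX minus input (vertical axis), for female (circles) and male (triangles) libraries with all bins, and for both sexes without the 16 bins of very high input (squares). Each symbol is a difference of means over libraries, 2 against 2 within a sex and 4 against 4 for the squares. Female and male values lie close together, and chromosomes 2 and 9 cross 0 when those bins are left out.

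Genes used in every cell lay mostly in bins with more H2AX than input, as did most bins with as many genes. A gene was given the bins that hold most of it or that it covers for the most part, and lists are described by their counts beside the 44.3% of bins higher and 42.2% lower in all. Since bins with genes had more H2AX, the 10674 bins that hold the midpoint of a gene are the closer background for most lists: 67.1% of them were higher and 19.4% lower, with a median of 0.15. Among these bins the share higher ran from 59.3% with 1 gene to 81.1% with 5 or more, so lists of gene-dense bins have a higher background still. Among 80 bins of ribosomal protein genes 69 were higher and 3 lower, with a median of 0.31, against 0.008 over all bins. The highest were Rplp0 (0.67), a protein of the ribosomal stalk, and Rpl22 (0.64), and the lowest were Rps12 (-0.19), Rps27a (-0.15) and Rps20 (-0.08). Among 18 bins of constitutively expressed genes 17 were higher and 1 lower (median 0.25). Both lists had a median of 3 genes per bin. Of all bins with 3 to 4 genes 78.8% were higher, with a median of 0.24. Eef2, the elongation factor that moves the ribosome, led with 0.69, before Gapdh (0.57), a glycolytic enzyme, and the chaperone gene Hsp90ab1 (0.48), and Tbp was the lower one (-0.10). Actb, which encodes a cytoskeletal actin, had 42.7, 41.3, 43.4 and 43.5 CPM in H2AX and 34.6, 36.0, 35.8 and 34.5 CPM in input (0.28 ± 0.02), with no overlap.

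Genes of the fibroblast itself did not share a direction. Of their 24 bins 12 were higher and 10 lower, with a median of 0.06. Col5a1 (0.70), Fbln1 (0.53), which encodes fibulin 1, and Col6a1 (0.45) were the highest. Vim, the gene of the intermediate filament protein vimentin, had 31.8, 31.7, 33.0 and 32.1 CPM in H2AX and 39.9, 39.9, 38.8 and 38.9 CPM in input (-0.29 ± 0.02). Dcn (-0.40) and Lum (-0.29), neighbouring genes of small leucine-rich proteoglycans, and the collagen gene Col3a1 (-0.28) were lower too. Collagen genes thus stood on both sides. Col1a1 was higher (0.23), Thy1 was higher (0.25), and Fn1, which encodes fibronectin, had 40.3 ± 1.90 CPM in H2AX and 40.1 ± 1.30 CPM in input (SD, n = 4 each), with a ratio of 0.01 and an adjusted p of 0.718 in edgeR.

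Markers of other cell types were more often higher than lower, as bins with genes were in general, except for neuronal genes. Of 195 bins of neuronal genes 137 were lower and 39 higher (median -0.21), as described below with the long genes. Bins of epithelial markers were higher in 11 of 11 cases (median 0.18, Krt5 0.56), those of macrophage and blood markers in 10 of 13 with 2 lower (0.22, Ptprc -0.34), those of endothelial markers in 8 of 12 with 3 lower (0.17, Tie1 0.43, Emcn -0.35). Of 11 bins of muscle markers 7 were higher and 4 lower (0.25), with Pax7 at 0.60 and Myod1 at 0.48 but Mef2c at -0.39. Whether a gene was expressed was not measured here.

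Lists of genes that answer to X-rays and to stress were higher in 50% to 75% of their bins, beside the 67.1% of bins with genes. Of 24 bins of p53 targets 17 were higher (70.8%) and 2 lower (median 0.17), and they held a median of 2 genes, for which 74.4% of all bins were higher. Bax, the pro-apoptotic effector, led with 0.48, and Cdkn1a, the gene of the cell cycle inhibitor p21, had 39.3, 41.7, 43.5 and 42.3 CPM in H2AX and 36.9, 36.4, 36.7 and 35.9 CPM in input (0.19 ± 0.02). The death receptor gene Fas was lower (-0.24). Of 20 bins of immediate early genes 15 were higher and 2 lower (0.27), with Klf2 (0.60) and Nr4a1 (0.49) at the top and Klf6 (-0.45) and Jun (-0.10) as the lower ones. Fos had 39.6 ± 1.16 CPM in H2AX and 38.1 ± 1.03 CPM in input (SD, n = 4 each), with overlapping libraries and a ratio of 0.06 that passed in edgeR (adjusted p = 0.0189) but not with TMM factors (0.0706), DESeq2 (0.0892), a 1.1-fold threshold or library sizes without the bins of very high input. Without female H2AX replicate 1 its edgeR adjusted p was 0.161, and without male input replicate 2 it was 0.251. Myc had 37.5 ± 0.494 CPM in H2AX and 37.8 ± 0.904 CPM in input and was not called (-0.01, edgeR adjusted p = 0.670). Under the last of those scalings it passed as lower (-0.06, adjusted p 0.0223). Of 10 bins of NF-kB targets 5 were higher and 3 lower (median 0.06), with Relb (0.53) and Icam1 (0.40) higher and Tnfaip3 (-0.24) and Cxcl1 (-0.21) lower.

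Genes of the machinery that makes and reads gH2AX lay in bins that were higher about as often as those of equal gene number. Of 24 bins of break sensing and signalling genes 19 were higher (79.2%) and 3 lower (median 0.19), with a median of 2 genes per bin and 74.4% of all such bins higher. Kat5, the acetyltransferase that activates ATM, had 0.68, Rnf8, the ubiquitin ligase recruited by MDC1, 0.57, and Rad50, of the MRN complex that senses broken ends, 0.45. Bard1, the partner of BRCA1, had -0.11. The H2ax gene lies in a bin with 46.4, 48.5, 46.8 and 47.9 CPM in H2AX and 36.0, 35.7, 35.3 and 36.5 CPM in input, a ratio of 0.40 ± 0.02, and no library of one kind reached into the other. Of 13 bins of H2A variants and their chaperones 12 were higher and none lower (0.34), with Znhit1, of the SRCAP complex that deposits H2A.Z, at 0.54 and Macroh2a1 at 0.46. H2az1 had 37.5 ± 0.664 CPM in H2AX and 36.2 ± 1.09 CPM in input, with a ratio of 0.05 and an edgeR adjusted p of 0.0360, and its libraries overlapped. That call was lost with TMM factors (adjusted p 0.115), with DESeq2 (0.134), against a 1.1-fold change and with library sizes that leave out the bins of very high input (0.01, adjusted p 0.783). It was lost as well without any one of 5 of the 8 libraries, with edgeR adjusted p-values of 0.0597 without male input replicate 2, 0.0691 without male input replicate 1, 0.107 without male H2AX replicate 1, 0.148 without female H2AX replicate 2 and 0.408 without female input replicate 1. The 7 sirtuin bins were all higher, from Sirt5 (0.12) to Sirt7 (0.56). Sirtuin bins held a median of 4 genes and those of H2A variants and chaperones 3. Of all bins with 3 to 4 genes 78.8% were higher.

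Replication-dependent histone genes, which supply core histones in S phase, lay mostly in bins of low H2AX. Of 8 bins that hold 58 of them, 6 were lower and 1 higher (median -0.14). The lowest was chr13:23500001-23600000, with 14 genes among them H2bc6, H3c6 and H3c7, where H2AX had 29.3, 30.9, 31.4 and 31.2 CPM and input 39.8, 40.0, 40.7 and 40.1 CPM (-0.39 ± 0.02). It was the bin with the third lowest ratio among those with 5 or more genes. Among bins with 5 or more genes, 17 were at least 1.2-fold lower. Of the 10 lowest of these 8 held olfactory receptor genes, and chr5:90700001-90800000 held the chemokine genes Cxcl15, Cxcl5 and Cxcl3 (-0.39).

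Bins of sensory receptor families were more often lower than higher. Among all bins 42.2% were lower and 44.3% higher, and among bins that hold the midpoint of a gene 19.4% and 67.1%. Of 338 bins of olfactory receptor genes, which are expressed in olfactory neurons, 197 were lower (58.3%) and 72 higher (21.3%, median -0.07). These bins held a median of 4 genes, and of all bins with 3 to 4 genes 11.0% were lower and 78.8% higher. The olfactory receptor bins ran from -0.43 at Olfr303, Olfr304 and Olfr305 to 0.43 at Olfr462 and Olfr463. Of 202 bins of vomeronasal receptors 87 were lower (43.1%) and 53 higher (26.2%, median -0.03). The share lower was close to that of all bins but above the 13.2% of all bins with 2 genes, their median number. Of those bins with 2 genes 74.4% were higher. By at least 1.2-fold, 3 of the vomeronasal receptor bins were lower and 1 higher. Zinc finger genes of the Zfp family, many of which repress retroelements and which also lie in clusters, had 246 of 313 bins higher and 27 lower (0.16), from Zfp804a (-0.49) to Zfp296 (0.72). That is 78.6% higher at a median of 2 genes per bin, beside 74.4% of all bins with 2 genes. Keratins and their associated proteins had 20 of 33 higher and 10 lower (0.12), and Hox clusters 6 of 9 higher and none lower (0.07). That is 60.6% and 66.7% higher, at medians of 5 and 4 genes per bin. Both shares were below those of bins with as many genes, 81.1% with 5 or more and 78.8% with 3 to 4. Imprinted genes had 22 of 35 higher (62.9%, beside 59.3% of all bins with 1 gene, their median number) and 7 lower (0.14). H19 (0.55) and Phlda2 (0.56) on the distal part of chromosome 7 were high and bins of Snrpn (-0.20) low.

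**Figure D4:**
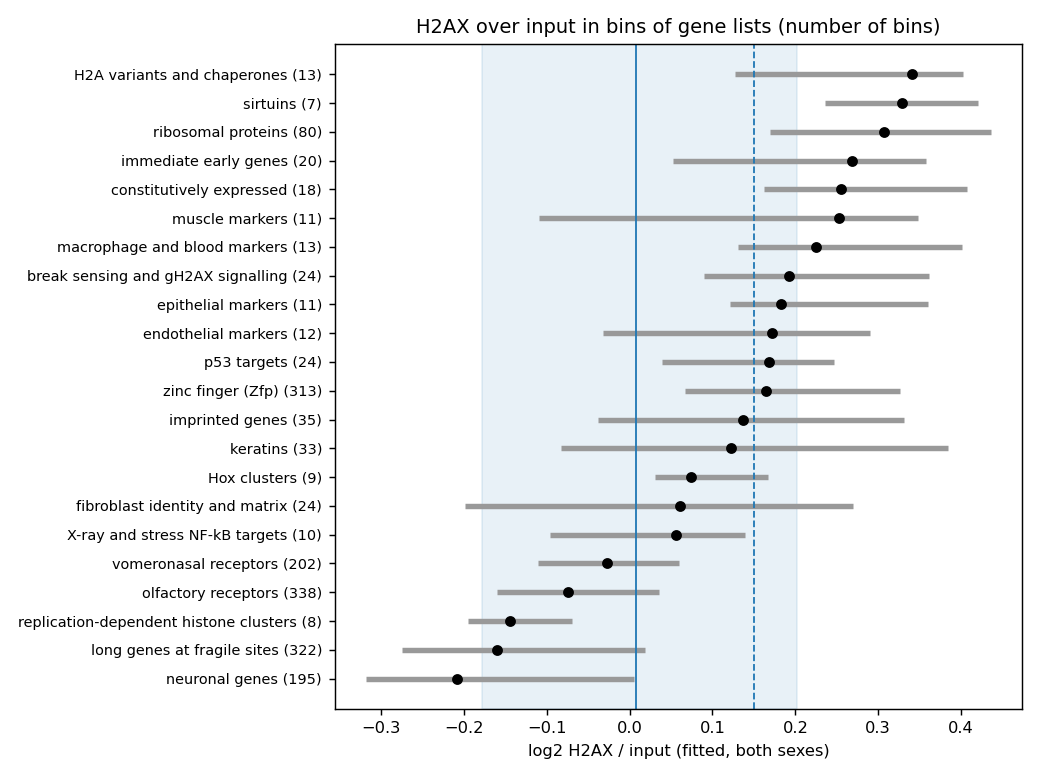
Median (points) and quartiles (bars) of the fitted log2 ratio of H2AX over input over the bins of each gene list, with the number of bins in brackets. The blue line and band are the median, 0.008, and quartiles, -0.18 to 0.20, of all 24032 bins, the dashed line is the median of bins that hold a gene, 0.15, and lists of shared bins or genes are not independent of each other. Sirtuin, H2A variant and ribosomal protein bins lie at the top, and neuronal and long fragile-site genes at the bottom.

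Bins of the listed neuronal genes and long fragile-site genes were mostly lower, with clear exceptions. Other long genes were not examined as a class. Of 195 bins of neuronal genes 137 were lower and 39 higher (median -0.21), and of 322 bins of long genes at common fragile sites, where chromosomes break under replication stress, 220 were lower and 71 higher (-0.16). That is 70.3% and 68.3% lower, and both lists had a median of 0 gene midpoints per bin. Of all bins without a gene midpoint 60.4% were lower, and of bins wholly inside gene bodies 41.8%. The bins of these lists come from 30 neuronal and 25 fragile-site genes, and neighbouring bins are not independent, so the genes were also taken one by one. Of 39 genes with 5 or more bins, 28 had a median below 0 and 11 above. Cadm2 (9 bins, median -0.47) averaged 27.5 ± 0.595 CPM per bin in H2AX and 38.9 ± 0.459 CPM in input, and Csmd3 (12 bins, -0.43) 27.6 ± 0.253 and 37.4 ± 0.247 CPM in the same order (SD over n = 4 libraries each). All bins of both genes were called lower.

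Nlgn1 (-0.35), Robo2 (-0.32), Ptprd (-0.31) and Lrp1b (-0.29), which encode adhesion and guidance receptors of neurons and a lipoprotein receptor, had lower values in all of their bins as well. At the opposite end stood Cdh13, which encodes a cadherin without a transmembrane part and had 12 of 12 bins higher (median 0.48, 50.3 ± 0.896 CPM in H2AX, 35.6 ± 0.620 CPM in input). Wwox, an oxidoreductase gene that spans a common fragile site in human cells, had 10 of 10 higher (0.34, 45.0 ± 1.25 CPM in H2AX, 35.4 ± 0.467 CPM in input). Both lie on chromosome 8, and Magi1 (0.22) had all 6 of its bins higher. Fhit, which spans another common fragile site in human cells, had -0.11, with 13 of 16 bins lower and 1 higher. Genes of the fragile-site list thus ran from the lowest to the highest of the 39.

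**Figure D5:**
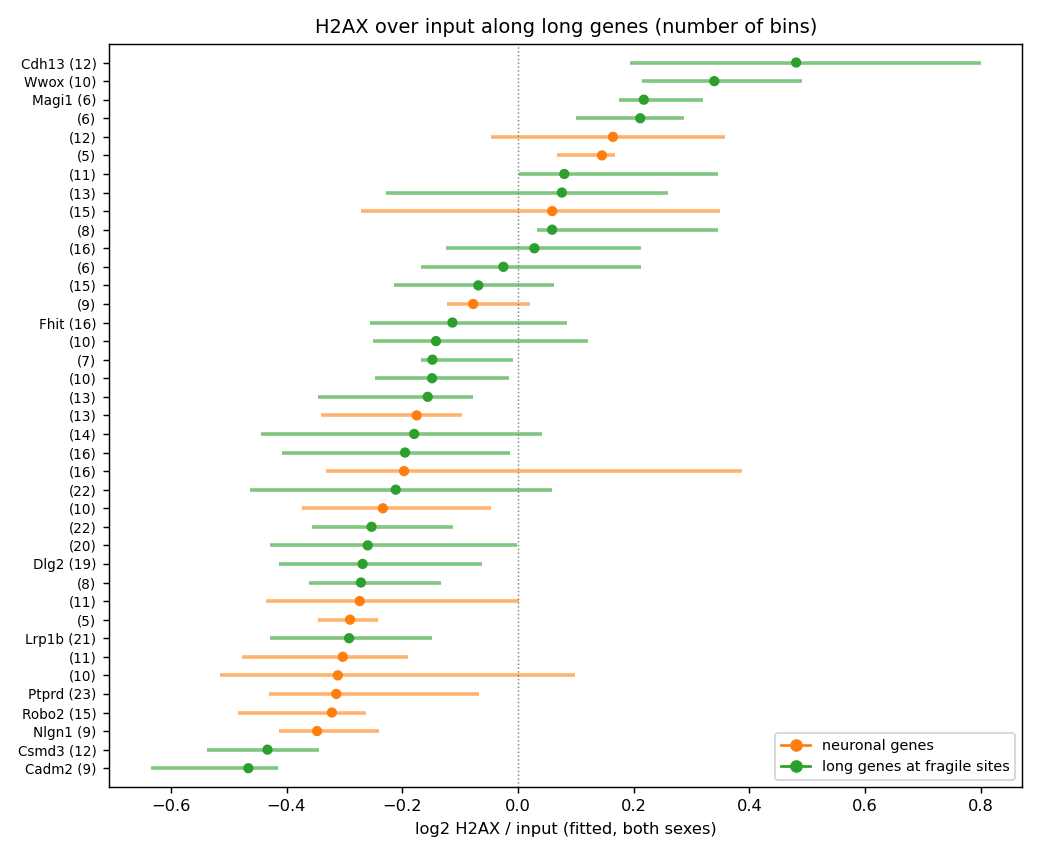
Fitted log2 ratio of H2AX over input along 39 long genes, as the median over the bins of each gene (points) and the range from its lowest to its highest bin (lines), with the number of bins in brackets and names for the genes described in the text. Neuronal genes are orange and genes of the fragile-site list green. Medians run from -0.47 at Cadm2 to 0.48 at Cdh13, and 28 of 39 lie below 0.

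Bins without any gene body were not uniformly poor in H2AX. Of 8411 such bins 5968 were lower and 1443 higher, and 426 of those higher were so by at least 1.2-fold. Next to the bin on chromosome 14 described above, the highest were chr7:59700001-59800000, with 143, 148, 139 and 146 CPM in H2AX and 77.4, 78.6, 81.8 and 84.4 CPM in input (0.84 ± 0.02), and chr4:140300001-140400000, with 52.3, 54.6, 53.3 and 56.3 CPM in H2AX and 29.7, 29.4, 31.8 and 33.1 CPM in input (0.81 ± 0.02). The groups did not overlap in either. Of the 10 highest, 5 lay on chromosome 4 between chr4:140300001-140400000 and chr4:153800001-153900000, and 4 of these inside the 2 long H2AX-rich regions of that chromosome.

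Female and male fibroblasts had nearly the same autosomal H2AX profile. In females 10168 bins were higher (42.3%) and 9347 lower (38.9%), and in males 9793 higher (40.7%) and 9569 lower (39.8%). Of 17819 bins called in both sexes, 17801 had the same direction. Across the 24032 bins the female and male ratios, which come from separate libraries, correlated by 0.97 (Pearson) and 0.97 (Spearman).

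The difference between the sexes, tested as an interaction, passed in 138 bins higher in females (0.574%) and 55 lower (0.229%). At least 1.2-fold was reached by 5 of them (0.0208%), all higher in females. The 4 bins of highest H2AX were among those with the largest female excess, with differences of female minus male log2 ratio of 0.47 at the bin on chromosome 14, 0.44 at Sytl2, 0.42 at Srgap1 and 0.33 at Sparcl1. The last of the 5 was chr16:93600001-93700000, which holds the carbonyl reductase genes Cbr1 and Cbr3. It had 73.9 and 84.0 CPM in female and 57.8 and 61.1 CPM in male H2AX libraries, against 40.9 and 43.2 CPM in female and 38.5 and 40.0 CPM in male input (0.31). In each of these bins both female H2AX libraries were above both male ones, but the libraries of a sex differed by more than elsewhere. Without female H2AX replicate 2 the difference at Sytl2 fell to 0.26, that at Srgap1 to 0.27 and that at Sparcl1 to 0.19.

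DESeq2 called no bin as different between the sexes, with 2419 bins at an unadjusted p under 0.05, against 3414 in edgeR, and its adjusted p was 0.485 at Sytl2. With the spread estimated over all 24 libraries 37 bins were higher and 7 lower, and left-out libraries gave 9 to 239 higher and 1 to 97 lower. On the side of lower values in females, the largest differences were -0.22 at chr4:89400001-89500000, -0.22 at Rasa1 and Ccnh, -0.21 at Ube2d3, Cisd2 and Manba and -0.21 at Rb1cc1, an autophagy gene. Without female input replicate 2 none of these 4 bins passed (edgeR adjusted p from 0.0581 to 0.103), and each also failed without 1 to 3 other single libraries. At Fn1 the ratio was -0.07 in females and 0.09 in males, and this difference of -0.17 passed as well (edgeR adjusted p = 0.0479).

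The profile of WT cells was set against that of SIRT7-KO cells, which lack the deacetylase SIRT7 and were irradiated in the same way. The difference of H2AX over input between WT and SIRT7-KO passed in 1 bin of 24033 (0.00416%), where it was above 0. It was chr17:39800001-39900000, where H2AX averaged 244 CPM in WT and 208 CPM in KO, and input 275 CPM in WT and 264 CPM in KO (difference 0.17 ± 0.03, edgeR adjusted p = 3.83e-04). This bin is 1 of the 16 of very high input, for which the counting of reads with several alignments is not known. The middle 90% of differences lay between -0.06 and 0.06. At an unadjusted p under 0.05 there were 1495 bins in edgeR and 1256 in DESeq2, which called 2. Without male KO H2AX replicate 1 the count of passing bins was 11. The lowest and highest bins described above had adjusted p-values of 0.286 at Lmbrd1 and 0.766 at Sytl2. A missing call does not show that the values are alike.

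Total H2AX and gH2AX were distributed differently in irradiated WT cells. The labels do not tell whether the libraries of both forms come from the same cultures. H2AX exceeded gH2AX, relative to their autosomal reads, in 8019 bins (33.4%) and was lower in 7485 (31.1%), mostly by little, since 839 of the higher (3.49%) and 385 of the lower bins (1.6%) passed 1.2-fold. The largest shortfall of H2AX was at chr17:39800001-39900000, the bin of very high input named above, with 244 CPM of H2AX against 2813 CPM of gH2AX (-3.49 ± 0.02). Then came chr3:5800001-5900000 (42.1 against 166 CPM, -1.94), chr11:109000001-109100000 (54.7 against 211 CPM, -1.91), the bin of Cmss1 and Filip1l on chromosome 16 (48.8 against 160 CPM, -1.68) and that of Lmbrd1 (38.3 against 111 CPM, -1.53). In the first 4 of these, H2AX over input lay between -0.32 and 0.08 on the log2 scale.

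The largest surplus of H2AX over gH2AX was at bins where H2AX was also highest over input: 238 against 143 CPM at Sytl2 (0.70), 172 against 109 CPM at the bin on chromosome 14 (0.62) and 134 against 86.0 CPM at Srgap1 (0.61). Next were chr4:153300001-153400000, into which Ajap1 reaches (51.2 against 34.0 CPM, 0.60) and chr7:59700001-59800000 (144 against 96.3 CPM, 0.58). The comparison shares its H2AX libraries with that over input, so the 2 are not independent. At the H2ax gene the difference was 0.01 ± 0.02 and was not called (edgeR adjusted p = 0.728).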

How the data were processed

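ChIP and input chromatin were sequenced, and the authors deposited a table of raw read counts for 27268 bins of 100 kb (build mm10). The submitters' processing notes name Bowtie2 2.2.9, SAMtools 0.1.19, Trimmomatic 0.36, FastQC 0.11.3, MACS2 2.2.7.1 and deepTools 2.4.2. How duplicates and multiply aligned reads were treated is not given in the sources used here. Of its 48 columns of counts, 24 carry no labelled library and were not used.

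The 24639 autosomal bins were filtered with filterByExpr (minimum count 10) and fitted with edgeR 4.0.16 (R 4.3.3, quasi-likelihood test, Benjamini-Hochberg adjustment), with group means of sex and antibody over the 8 WT libraries and library size set to autosomal reads. Fits with SIRT7-KO used 16 libraries and those with gH2AX 8. SE is that of the log2 fold change. Bin classes were compared by exact two-sided permutation tests over libraries on medians of log2(CPM + 0.1). DESeq2 1.42.0, limma 3.58.1 and pandas 2.3.3 on Python 3.11.15 were used besides. Gene positions and promoter windows came from RefSeq (GRCm38.p6), with 20665 autosomal protein-coding genes and 20085 windows of such genes. Some genes had several windows. The fit was tested on simulated counts.

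The bins, lists and tests were chosen with earlier results of these data known, and classes by gene-body cover and promoter CG after the data were seen. Named are the 10 highest and 10 lowest called bins without overlap, the 8 longest regions a direction, the 3 highest and 3 lowest bins of each list, 14 single genes, and the 5 bins a direction with the largest called difference between sexes, genotypes and H2AX forms. Genes named beyond these were chosen after their values were seen. Some genes that this rule names are not reported here.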

Additional observations from a re-analysis of the deposited data

Results flagged for a closer look

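In 11 of 144 groups of 4 libraries that were examined, 1 library stood apart from the other three by more than Dixon's critical value of 0.829, and chance gives about 1 in 20. Female H2AX replicate 2 accounted for 6 of them. It had -0.124 in bins without a gene, against -0.127 in the others, 11.6% of autosomal reads on chromosome 2 (11.8% in the others), 6.47% on chromosome 9 (6.52% to 6.53%), 4.59% on chromosome 12 (4.57% to 4.58%), 3.508% on chromosome 16 (3.506%) and 3.71% on chromosome 17 (3.69%). Female input replicate 2 had 0.00717 in the tested bins of the first 5 Mb of chromosomes, against 0.0161 to 0.0166, and 5.88% of reads on chromosome 3 (5.87%). Female input replicate 1 had 5.60% on chromosome 6, against 5.61%. Male input replicate 1 had 34.4 CPM at Rbm19, against 31.4 to 31.9 CPM, and female H2AX replicate 1 had 38.2 CPM at Myc, against 37.2 to 37.4 CPM. No value of H2AX minus input that was called changed its sign without any one of the 8 libraries.

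Female and male cells differed in the test of the interaction at 10 named bins. The difference of female minus male H2AX over input was 0.47 at chr14:45800001-45900000, 0.44 at Sytl2, 0.42 at Srgap1, 0.33 at Sparcl1 and 0.31 at Cbr1 and Cbr3. It was -0.22 at chr4:89400001-89500000, -0.22 at Rasa1, -0.21 at Ube2d3, -0.21 at chr13:85300001-85400000 and -0.21 at Rb1cc1. None of the 10 passed in DESeq2.

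Opposite signs in the sexes, not tested as a difference, were seen for bins wholly inside gene bodies (-0.00586 in females, 0.00225 in males), chromosome 6 (0.00368 in females and -0.000737 in males) and chromosome 13 (0.00264 in females and -0.00122 in males).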

How the results depend on the processing

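Counts of bins higher or lower than input stayed within 1.5 times under TMM factors, DESeq2, both other low-count filters, other library sizes and the fit of all 24 libraries, in the average and in each sex. Against a change of 1.1-fold (glmTreat) fewer passed: 6917 higher and 6236 lower in the average, 5847 lower in females, 6317 higher and 5740 lower in males, 2149 higher and 1431 lower for H2AX over gH2AX, 5 and 0 between the sexes and 0 higher between WT and KO. The count between the sexes was 0 and 0 with DESeq2, 37 and 7 with all 24 libraries, and 85 lower with library sizes that leave out the bins of very high input. Between WT and KO DESeq2 called 1 lower. The cause was not tested.

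Without any single library, 10386 to 10575 bins were higher and 9879 to 10043 lower, and between the sexes 9 to 239 higher and 1 to 97 lower, with the extremes reached without female input replicate 2 and female H2AX replicate 1. Between WT and KO 1 to 4 were higher and 0 to 7 lower, the most without male KO H2AX replicate 1. Class and chromosome differences moved by less than the spread between libraries, as values only, since 3 libraries against 4 cannot go below p = 0.0571 in an exact permutation test.

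Without the 16 bins of very high input, chromosome 2 turned to 0.00987, 6 to -0.0301, 9 to 0.0508, 13 to -0.0443, 15 to -0.0117 and 18 to -0.0407 (15 and 18, which hold none of these bins, by the change of the totals), and chromosome 12 fell to 0.00207 (exact permutation, adjusted p = 0.147). With means over bins, those with the fewest promoter CG turned to 0.00469.

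Deviations of H2AX and input libraries with the same replicate number correlated across bins by 0.012 in females and 0.016 in males, so no pairing by number was seen. Noise of each library enters these values, so they cannot tell whether libraries of one number share a culture. With the number as a block 10628 bins were higher and 10146 lower, and 2 were lower between WT and KO. Removal of a trend on GC content was not run, since no genome was at hand, and classes by repeats were not analysed.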

Other observations

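On the X chromosome, which was left out of all tests, reads were set against those of the autosomes. On the log2 scale this ratio was -4.02 and -4.01 in female and -4.93 and -4.93 in male H2AX libraries, against -3.99 and -3.99 in female and -4.85 and -4.85 in male input. H2AX lay below input in both sexes, by less in females than in males, and this was not tested.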
